A study of Saccharomyces cerevisiae with 6 samples.

Results

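The genes described here encode 10 molecular chaperones of budding yeast that lie outside the Hsp70 family. They were chosen by systematic name: HSC82 (YMR186W), HSP82 (YPL240C), HSP104 (YLL026W), HSP78 (YDR258C), HSP42 (YDR171W), HSP26 (YBR072W), HSP60 (YLR259C), HSP10 (YOR020C), YDJ1 (YNL064C) and SIS1 (YNL007C). All 10 were found among the 6572 features counted in BY4741, a haploid S. cerevisiae laboratory strain derived from S288C, and no low-count filter removed any. The series holds 3 RNA sequencing libraries of that strain and 3 of S. boulardii Biocodex, a probiotic yeast. Cells of both strains were pelleted after 6 h in a medium called ILM, and the labels place them in mid-exponential growth; no group received another treatment. The 5482 Biocodex features carry names of another kind, 0 of which occur in BY4741, so the chaperone genes were followed in BY4741 alone and no strain contrast was made for them.

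The counted reads of BY4741 replicates 1, 2 and 3 came to 18707708, 5181546 and 4581414. Whether the 3 came from separate cultures is not stated in the labels, so the spread between them may be technical. LEU2, URA3 and MET17, which are deleted in BY4741, had 0 reads in each library, and the limit that 0 reads set by counting error alone is 0.160, 0.579 and 0.655 CPM (reads per 1000000 counted reads). HIS3, of which the strain lacks only a part, had 925, 196 and 285 reads. Levels of different genes are given below as CPM per kb of coding length, with the mean ± SD over the 3 libraries. They are shares of a library's reads, so fewer cells that express a gene and less of its RNA per cell cannot be told apart.

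Chaperones bind proteins that are unfolded, newly made or aggregated and help them reach or regain their fold. Hsp90 acts late, on nearly folded clients such as kinases, and yeast carries it as a constitutive form, Hsc82, and a heat-induced form, Hsp82. Hsp104 pulls proteins out of aggregates together with Hsp70 and J-domain proteins, Hsp78 does the same in the mitochondrial matrix, and the small heat shock proteins Hsp42 and Hsp26 hold unfolding proteins in a state from which they can be recovered. Hsp60 and its lid Hsp10 form the folding chamber of the mitochondrial matrix, while Ydj1 and Sis1 are J-domain proteins that deliver clients to cytosolic Hsp70. Heat shock factor Hsf1 binds heat shock elements, made of alternating GAA and TTC units, and the general stress factors Msn2 and Msn4 bind the stress response element CCCCT.

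The promoter stretches that hold these elements are shown as a description of the genes. Within 500 bases upstream of the coding start in the S288C reference R64 of RefSeq, both strands were searched for CCCCT. The paired heat shock units searched were GAANNTTC or TTCNNGAA, which read the same on both strands. The 3-unit element has 3 such units alternating, with any 2 bases between neighbours, so each of its matches contains paired ones. HSP82, HSP104, HSP78, HSP42 and HSP26, the members listed here as stress-induced, each held CCCCT, with 2 matches in HSP82 and 3 in each of the others. HSC82, HSP60, HSP10, YDJ1 and SIS1 held 0. The list was drawn up from what is known of these genes, so its match with CCCCT is not an independent result. The label does not mean that the members outside it lack heat induction. Each of the 10 held paired units, and HSP104, HSP78, HSP42, HSP60, HSP10 and SIS1 held the 3-unit element. Among the 5896 matched genes with a full window, 34.45% held CCCCT, 35.43% paired units and 1.48% the 3-unit element. A 3-unit element together with CCCCT occurred in 29 of these promoters (0.49%), among them those of HSP104, HSP78 and HSP42. With 3 or more CCCCT matches it occurred in 5 promoters (0.08%), which include the same 3 members. That cut was not planned and equals the count these members hold, so its rarity is not an independent result. Within 300 bases, 4 members held CCCCT and 5 the 3-unit element, against 22.52% and 0.88% of 5897 promoters. HSP26 held no CCCCT in that window, its nearest match lying 326 bases before the start, so the split by class did not hold there.

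The stretches below run 5′ to 3′ on the gene's coding strand, with paired heat shock units and CCCCT, on either strand, in capitals. They are reference sequence read from R64, with R64 coordinates; the build behind the counts is not given in the sources used here. The first 5 belong to the stress-induced members. HSP104 is at chrXII:88316-88460 on the plus strand, HSP78 at chrIV:974364-974495 on the minus strand, HSP42 at chrIV:806373-806448 on the plus strand, HSP26 at chrII:381671-381713 on the plus strand and HSP82 at chrXVI:98680-98865 on the minus strand.
HSP104: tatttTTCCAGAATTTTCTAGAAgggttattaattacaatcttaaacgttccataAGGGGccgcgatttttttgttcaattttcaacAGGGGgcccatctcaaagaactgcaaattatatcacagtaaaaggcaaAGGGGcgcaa
HSP78: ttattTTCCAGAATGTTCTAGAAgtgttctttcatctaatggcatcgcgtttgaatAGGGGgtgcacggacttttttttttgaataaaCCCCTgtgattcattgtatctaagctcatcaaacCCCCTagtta
HSP42: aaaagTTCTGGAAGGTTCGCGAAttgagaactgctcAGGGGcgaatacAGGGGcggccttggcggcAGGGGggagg
HSP26: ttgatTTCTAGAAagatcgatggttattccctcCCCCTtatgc
HSP82: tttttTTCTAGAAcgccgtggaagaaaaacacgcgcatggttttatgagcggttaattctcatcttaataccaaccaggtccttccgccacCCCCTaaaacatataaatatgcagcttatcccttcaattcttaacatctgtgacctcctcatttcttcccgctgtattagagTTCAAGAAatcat

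In HSP104, HSP78 and HSP42 a run of overlapping heat shock units stood 302, 247 and 243 bases before the coding start, and 3 stress response elements followed it toward the gene. HSP26 had a single pair of units 354 bases before the start, and the remaining 2 of its CCCCT matches lay further upstream, outside the stretch shown. The 4 stretches that follow belong to members without CCCCT. SIS1 is at chrXIV:619882-619914, HSP60 at chrXII:665195-665217 and HSP10 at chrXV:370987-371009, all on the minus strand, and HSC82 at chrXIII:632133-632182 on the plus strand.
SIS1: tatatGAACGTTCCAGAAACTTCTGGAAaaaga
HSP60: tcgtgGAATTTTCCAGAAaacca
HSP10: tgataGAAATTTCTAGAAtcttg
HSC82: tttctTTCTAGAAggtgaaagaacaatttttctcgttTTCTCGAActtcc

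SIS1 carried 4 overlapping pairs in 1 run, the most of the 10 genes, and YDJ1 a single pair 335 bases before its start. A match is a description of these letters and does not show that a factor was bound.

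**Figure D1:**
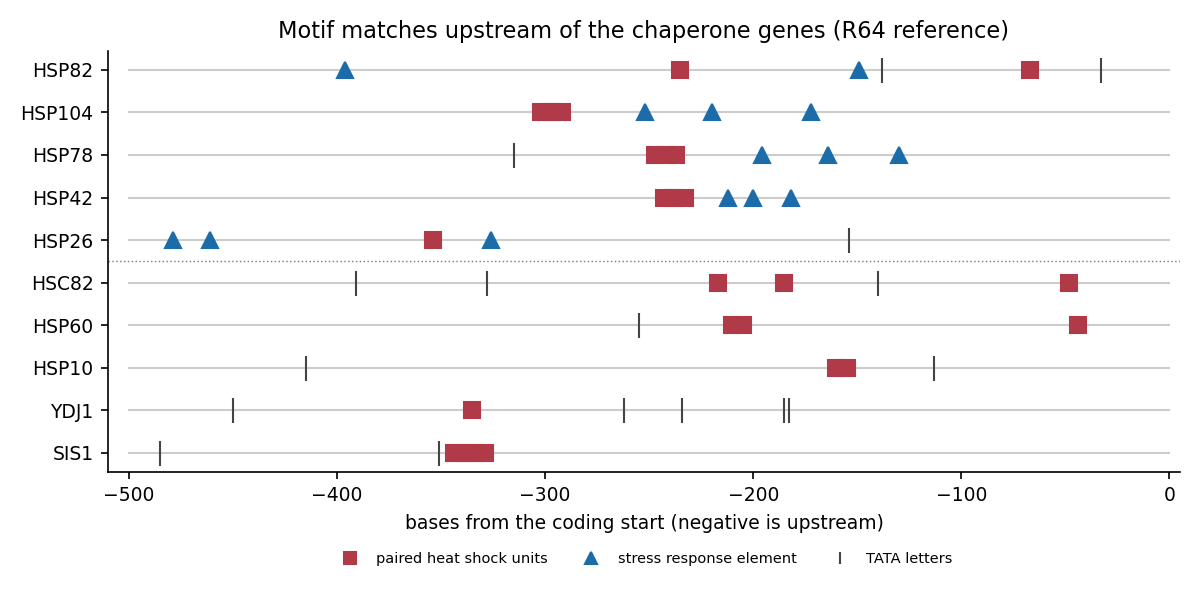
Motif matches within 500 bases upstream of the coding start of each chaperone gene, by distance from that start in bases, in the R64 reference. Squares are paired heat shock units, triangles stress response elements and ticks the letters TATAAA or TTTATA; triangles appear in the 5 stress-induced members above the dotted line and in 0 of the 5 below it.

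All 10 genes were expressed above the middle of the transcriptome. Each lay above the median of the 5898 genes matched to R64 in each of the 3 libraries, as did 42.6% of all matched genes. Their median was 281, 350.4 and 260.2 CPM per kb in replicates 1, 2 and 3, against 44.1, 44.6 and 46.9 for all matched genes, or 6.59 ± 1.17 times as high (SD, n = 3). HSP26, HSP42, HSP10 and SIS1 lay in the top 10% per kb in each library, as did 8.34% of all matched genes, and HSP104 joined them in replicate 2. This placing depends on length and was not recomputed in CPM without length, where HSP104 had a mean of 845 and HSP10 of 203. Together the 10 genes took 0.605%, 0.598% and 0.525% of the reads.

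HSP26 led, and HSP42, the other small heat shock protein gene, had the next highest mean per kb. HSP42 lay below HSP10 in replicate 1, at 712 against 756 CPM per kb. In CPM without length its mean of 834 lay below the 845 of HSP104. HSP26 stood at 3513, 2865 and 2202 CPM per kb in replicates 1, 2 and 3, a mean of 2860.0 ± 655 (SD, n = 3), which placed it 48th of all matched genes. Each HSP26 library lay above every library of the other members. HSP42 stood at 712, 802 and 705, or 739 ± 54.1 (SD, n = 3), with the smallest relative spread of the 10 (coefficient of variation 7.31%). HSP26 therefore exceeded HSP42 in each library, by 4.93-fold, 3.57-fold and 3.12-fold per kb (log2 1.93 ± 0.34, SD, n = 3), and the log2 ratio in CPM without length was 1.12. The 2 proteins have overlapping but distinct work, Hsp42 being known to collect aggregates at deposit sites in growing cells and Hsp26 to activate on heating.

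The disaggregases differed by compartment. HSP104 stood at 286, 389.7 and 254 CPM per kb, or 309.9 ± 71.0 (SD, n = 3), highest in replicate 2. HSP78, its mitochondrial relative, stood at 82.5, 71.5 and 108, or 87.2 ± 18.5 (SD, n = 3), and was the lowest of the 10 genes. The ranges did not overlap, and HSP104 exceeded HSP78 by 3.47-fold, 5.45-fold and 2.36-fold (log2 1.83 ± 0.60, SD, n = 3). The pair moved in opposite directions between libraries: HSP78 was lowest where HSP104 was highest. HSP26 exceeded HSP104, with which small heat shock proteins cooperate in recovering aggregates, by 9.22-fold on average (log2 3.20 ± 0.38, SD, n = 3). In CPM without length, with coding sequences of 645 and 2727 bases, that log2 ratio was 1.12.

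The Hsp90 genes were close to each other. HSC82 stood at 151, 154 and 179 CPM per kb in replicates 1, 2 and 3, or 161 ± 15.4 (SD, n = 3). HSP82 stood at 145, 137 and 118, or 133 ± 13.8 (SD, n = 3). HSC82 was the higher in each library, by 1.04-fold, 1.12-fold and 1.52-fold, and the lowest HSC82 value lay above the highest HSP82 value. The mean log2 ratio of 0.28 ± 0.29 (SD, n = 3) was smaller than its SD, and without replicate 3 it was 0.11. Of the reads on both genes, HSC82 took 50.9% (95% Wilson interval 50.002 to 51.8) in replicate 1, 52.8% (51.0 to 54.5) in replicate 2 and 60.2% (58.4 to 61.9) in replicate 3. The intervals of replicates 1 and 2 overlapped, and that of replicate 3 lay above both; they cover counting error only, because sequencing reads are not independent molecules. The sum of both genes was 296, 291 and 297 CPM per kb, or 295 ± 3.24 (SD, n = 3), a narrower spread than that of either gene.

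How far reads can tell the 2 genes apart depends on their sequences. In R64 the coding sequences, of 2118 and 2130 bases, aligned over 2133 columns with 91.7% identity, 160 mismatches and 18 gap columns. Of the 50-base words of each gene, 133 occurred in the other, which is 6.43% for HSC82 and 6.39% for HSP82, and the remaining members shared 0 words with any gene. The longest identical run was 113 bases long. It is shown with 20 bases on each side and with differing bases in capitals, since reads inside it cannot be assigned to either gene by sequence. The stretch is at chrXIII:634075-634227 on the plus strand for HSC82 and chrXVI:96741-96893 on the minus strand for HSP82.
HSC82: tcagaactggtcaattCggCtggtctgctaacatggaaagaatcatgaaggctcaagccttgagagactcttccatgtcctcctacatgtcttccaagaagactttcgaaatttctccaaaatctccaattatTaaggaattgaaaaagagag
HSP82: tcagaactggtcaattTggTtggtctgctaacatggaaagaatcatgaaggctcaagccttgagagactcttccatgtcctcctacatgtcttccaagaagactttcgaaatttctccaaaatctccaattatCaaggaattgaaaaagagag

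The 2 stretches differ at 3 of 153 bases. How the authors' counting treated reads inside the run is not known.

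The mitochondrial chaperonin genes were unequal per kb. HSP60 stood at 276, 311 and 267 CPM per kb, or 285 ± 23.4 (SD, n = 3). HSP10 stood at 756, 464 and 681, or 634 ± 151 (SD, n = 3), lowest in replicate 2 and with the largest relative spread of the 10 (coefficient of variation 23.9%). Every HSP10 library lay above every HSP60 library, and the log2 ratio of HSP60 over HSP10 was -1.13 ± 0.48 (SD, n = 3). The direction depends on length, since HSP10 has a coding sequence of 321 bases and HSP60 one of 1719. In CPM without length HSP60 was higher, at 489 ± 40.2 against 203 ± 48.6 (SD, n = 3 each), with a log2 ratio of 1.29. HSP60 exceeded HSP78, the other mitochondrial member, by 3.31-fold (log2 of HSP78 over HSP60 -1.72 ± 0.41, SD, n = 3).

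Of the J-domain genes, SIS1 was the higher. It stood at 427, 508 and 525 CPM per kb, or 486 ± 52.1 (SD, n = 3). YDJ1, usually described as the major cytosolic J-domain protein, stood at 161, 123 and 174, or 152 ± 26.7 (SD, n = 3), lowest in replicate 2. SIS1 exceeded YDJ1 by 3.22-fold (log2 of YDJ1 over SIS1 -1.68 ± 0.33, SD, n = 3), and the ranges did not overlap. YDJ1 and HSC82 could not be ordered: HSC82 was higher in 2 of 3 libraries, with a log2 ratio of 0.10 ± 0.21 (SD, n = 3) that was -0.02 without replicate 2 and 0.88 in CPM without length. HSC82 lay below HSP104 in each library (log2 -0.92 ± 0.42, SD, n = 3).

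**Figure D2:**
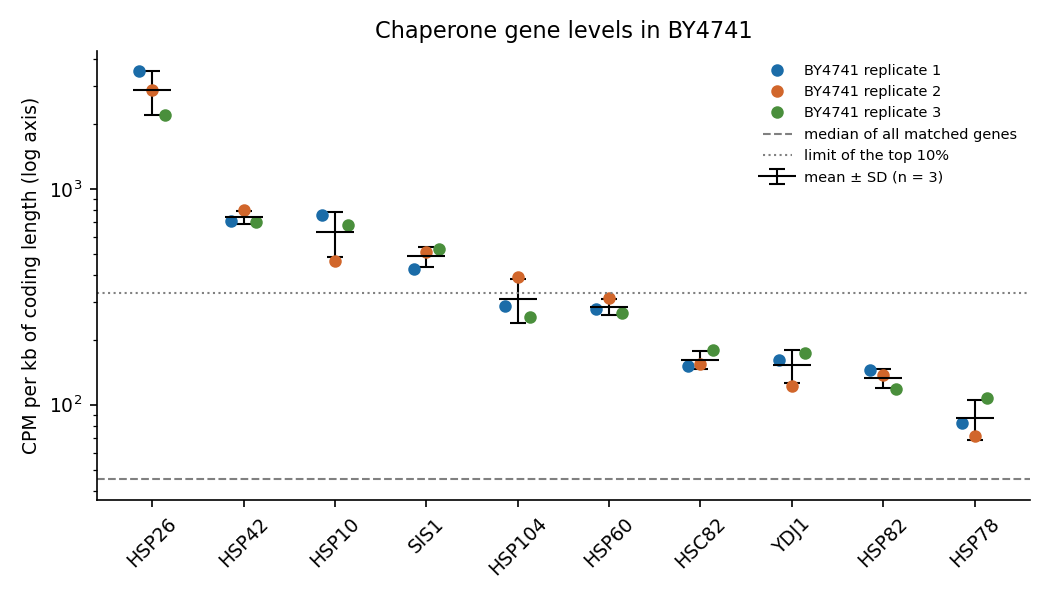
Levels of the 10 chaperone genes in the 3 BY4741 libraries, in CPM per kb of coding length on a log axis, with points for libraries, black marks for the mean ± SD (n = 3), and lines for the mean over libraries of the median of all matched genes and of the top 10% limit. HSP26 stands apart at the top and HSP78 is lowest, at 87.2 CPM per kb, still above the median line.

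From highest to lowest the means ran HSP26, HSP42, HSP10, SIS1, HSP104, HSP60, HSC82, YDJ1, HSP82 and HSP78. Of the 9 pairs of neighbours in that order, 4 had ranges that did not overlap: HSP26 above HSP42, SIS1 above HSP104, HSP60 above HSC82, and HSP82 above HSP78. The remaining 5 overlapped and were higher in 2 of 3 libraries, so their order is not beyond the spread. This order is per kb and depends on length. In CPM without length HSP104 lay above SIS1 in each library, at 845 ± 194 against 515 ± 55.2 (SD, n = 3 each). HSP78 lay above HSP82 in replicate 3, at 262 against 251 CPM. Members with CCCCT upstream lay at both ends, HSP26 at the top and HSP82 and HSP78 at the bottom.

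In all, 9 ratios between members were computed within libraries, which frees them from library scaling. Of these, 8 kept 1 direction in 3 of 3 libraries, with an exact two-sided sign-flip permutation p of 0.25 (adjusted p 0.281, Benjamini-Hochberg over 9 ratios), and HSC82 over YDJ1 did not, with p = 0.75. With 3 libraries no p below 0.25 can be reached, so none of the ratios can pass a threshold of 0.05 in this design.

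**Figure D3:**
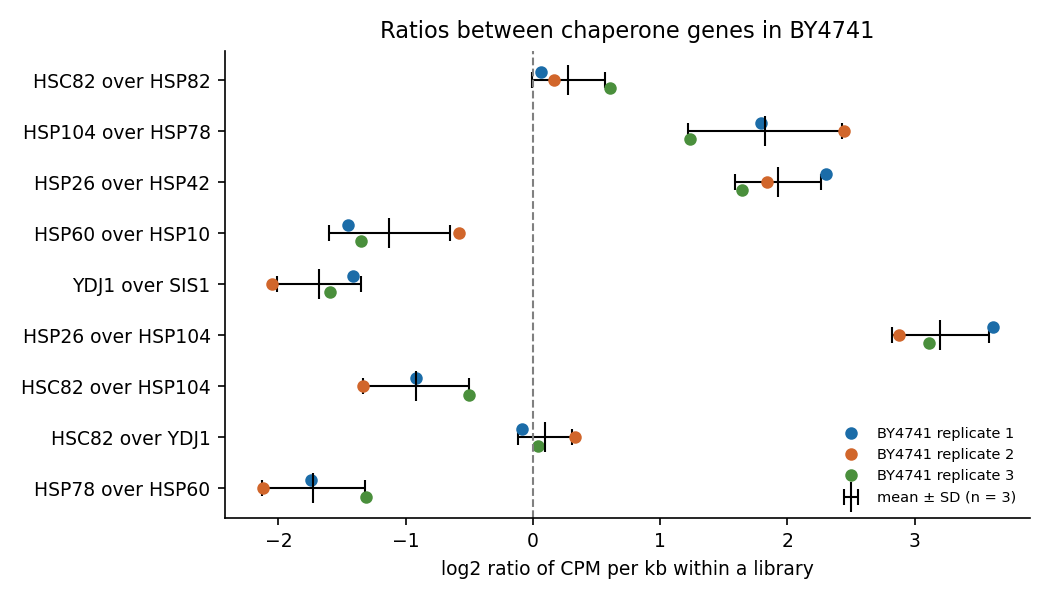
The 9 log2 ratios of CPM per kb between chaperone genes, with 1 point per BY4741 library and black marks for the mean ± SD (n = 3); the dashed line at 0 marks equal levels per kb. HSP26 over HSP104 is the largest at 3.20, and HSC82 over HSP82 and HSC82 over YDJ1 lie near 0.

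Between libraries the chaperone genes shifted about as much as other genes of at least 100 mean CPM, and not as a block. Among 5108 matched genes of at least 10 mean CPM, 7.13% were over 2-fold higher in replicate 1 than in replicate 2 and 4.21% over 2-fold lower. The shares were 5.15% and 5.21% for replicate 1 against replicate 3, and 7.32% and 10.3% for replicate 2 against replicate 3. None of the 10 members passed 2-fold in any of these, which for a list of 10 genes is near the background shares. Those shares include genes of 10 to 100 mean CPM, whereas all 10 members exceed 100. The largest ratio between libraries was 1.63-fold, for HSP10, followed by 1.60-fold for HSP26 and 1.53-fold for HSP104. The SD of log2 CPM had a median of 0.21 over the members and 0.23 over the 2023 matched genes of at least 100 mean CPM, which include all 10. HSP42 was at percentile 13.2 of that spread and HSP10 at percentile 79.8. Counting error was smaller than the spread of each gene, since the fewest reads on any member in any library were 772 (HSP10 in replicate 2), a relative counting error of 3.60%.

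Set against the mean of the other 2 libraries, HSP26 deviated by log2 0.48 in replicate 1 and -0.53 in replicate 3. HSP104 deviated by 0.53 in replicate 2 and -0.39 in replicate 3, and HSP78 by -0.40 and 0.49 in the same libraries. HSP10 deviated by -0.63 and YDJ1 by -0.45 in replicate 2. Genes of the same class thus went both ways. The 5 stress-induced members had medians of -0.08, 0.07 and -0.26 in replicates 1, 2 and 3, and the 5 remaining members -0.06, -0.09 and 0.20. Over the 2023 genes of at least 100 mean CPM the medians were -0.02, 0.00 and 0.04. In replicate 3, 4 of 5 stress-induced members were below the other libraries and 4 of 5 remaining members above, the exceptions being HSP78 and HSP60. Of the 2023 genes, 1103 were above and 920 below in that library, and with 5 genes per class no class pattern is read from these counts. The values of a gene balance over the 3 libraries, so those of 1 library partly restate the others, and replicates of 1 group give no contrast to test.

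**Figure D4:**
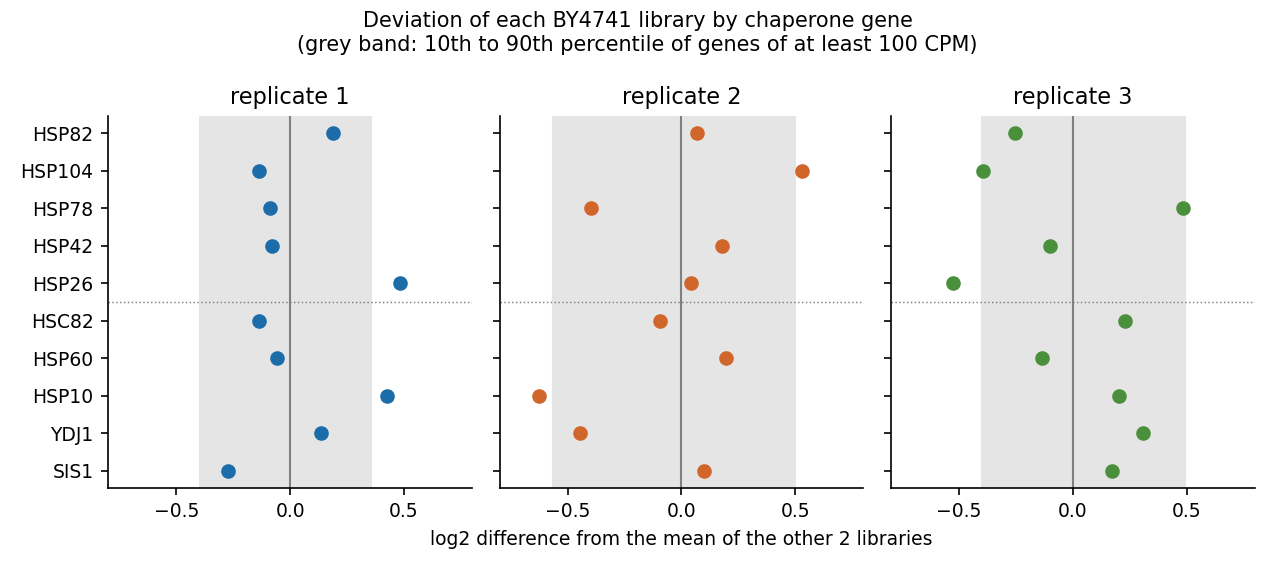
Deviation of each BY4741 library from the mean of the other 2, in log2 CPM, for each chaperone gene, with stress-induced members above the dotted line; the grey band spans the 10th to 90th percentile of the genes of at least 100 mean CPM. Most points lie inside the band, and HSP26, HSP10, HSP104 and HSP78 lie farthest from 0.

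The partners of these chaperones were measured in the same libraries. Of 12 Hsp90 co-chaperone genes, 7 lay above the median of all matched genes in each library and 3 below it, and their median was 131 ± 3.28 CPM per kb (SD, n = 3). SBA1, the p23 protein that holds the closed Hsp90 state, was highest per kb at 656 ± 35.7, or 2.23 ± 0.145 times the summed Hsp90 level (SD, n = 3 each). Both statements depend on length. In CPM without length STI1 was highest, at 521 ± 79.0 against 427 ± 23.2 for SBA1 (SD, n = 3 each). HSC82 and HSP82 stood at 342 and 284 CPM, so SBA1 then lay below their sum. STI1, the adaptor that passes clients from Hsp70 to Hsp90, stood at 294 ± 44.6 CPM per kb (SD, n = 3), a ratio to that sum of 0.999 ± 0.156. CDC37, the adaptor for kinases, stood at 107 ± 14.3 CPM per kb, and AHA1, the activator of the Hsp90 ATPase, at 209 ± 25.9 (SD, n = 3 each). CPR7, a prolyl isomerase, was lowest at 13.4 ± 8.12 (SD, n = 3). The co-chaperone genes thus ran from 13.4 to 656 CPM per kb, while the Hsp90 genes stood at 133 and 161.

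The 14 Hsp70 genes, counterparts of Hsp104 and of the J-domain proteins, had a median of 186 ± 18.03 CPM per kb (SD, n = 3). Of them, 11 lay above the median of all genes in each library and 3 below it. SSB2, the ribosome-bound Hsp70, was highest at 807 ± 151 and LHS1, of the endoplasmic reticulum, lowest at 13.3 ± 5.84 (SD, n = 3 each). SSA1, the cytosolic Hsp70 that works with Hsp104, stood at 597, 600.5 and 629 CPM per kb, 2.03 ± 0.470 times HSP104 (SD, n = 3). SSA1 shares 57.9% of its 50-base words with other genes and SSB2 43.2%, as does SSB1 at 648 ± 154 CPM per kb (SD, n = 3), so these counts, and the order of SSB2 and SSB1, are uncertain. Without genes that share over 50% of their words, the list's median was 134.

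The other J-domain genes all stood below SIS1 in the mean of the libraries, and ZUO1 and CAJ1 above YDJ1. The 20 measured had a median of 52.0 ± 9.32 CPM per kb (SD, n = 3), 8 lay above the median of all genes in each library and 6 below. ZUO1, the J-domain partner of the ribosome-bound Hsp70, was highest at 224 ± 6.80 (SD, n = 3), and CAJ1, less studied, stood at 176 ± 12.9 (SD, n = 3). JJJ3, of the diphthamide pathway, was lowest, with 42, 0 and 1 reads.

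In the mitochondrial matrix, 9 of 11 measured genes of folding and proteolysis lay above the median of all genes in each library, and their median was 97.6 ± 18.5 CPM per kb (SD, n = 3). YTA10 was not matched by that symbol. SSC1, the matrix Hsp70 that pulls proteins in and passes them to Hsp60, was highest at 360 ± 11.9 CPM per kb, 1.27 ± 0.0919 times HSP60 (SD, n = 3 each). MDJ1, its J-domain partner, stood at 149.6 ± 12.04 CPM per kb and ATP12, which assembles the ATP synthase, was lowest at 19.1 ± 5.29 (SD, n = 3 each). Per kb HSP78, at 87.2, lay in the middle of these genes, HSP60 below SSC1 and HSP10 above SSC1. In CPM without length HSP10 lay below SSC1, at 203 ± 48.6 against 707 ± 23.4 (SD, n = 3 each). HSP78, at 212 CPM, then lay below SSC1 and MDJ1 only.

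The cytosolic chaperonin CCT and prefoldin, counterparts of Hsp60 for actin and tubulin, had a median of 85.1 ± 6.45 CPM per kb over 14 genes (SD, n = 3). Of these, 10 lay above the median of all genes in each library and 0 below. CCT6 was highest at 267 ± 2.02 and PFD1, a prefoldin subunit, lowest at 40.5 ± 13.1 (SD, n = 3 each). In the mean of the libraries HSP60, at 285, stood above each CCT gene, but in replicate 3 it stood at 267 and CCT6 at 268.

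Genes for aggregate sorting, nucleotide exchange and other heat shock proteins had a median of 44.8 ± 15.4 CPM per kb (SD, n = 3), close to that of all matched genes. Of the 10 genes, 4 lay above the median of all genes in each library and 3 below. HSP12, a small protein that protects membranes and is no relative of Hsp26, was highest at 8653 ± 1481, or 3.10 ± 0.620 times HSP26 (SD, n = 3 each). SNO4 was lowest at 13.3 ± 2.79, and it belongs to a near-identical family with HSP32 and HSP33. Without near-identical genes the median of the list was 81.7.

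The regulators were expressed as well. HSF1 stood at 95.7, 140.0 and 97.1 CPM per kb, or 111 ± 25.2 (SD, n = 3), highest in replicate 2. MSN4 stood at 73.3 ± 8.24 and MSN2 was the lowest of the 7 regulators at 31.0 ± 5.97 (SD, n = 3 each). RPN4, the activator of proteasome genes, was highest at 177 ± 16.6 (SD, n = 3). Of the 7, 5 lay above the median of all genes in each library and 1, MSN2, below.

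**Figure D5:**
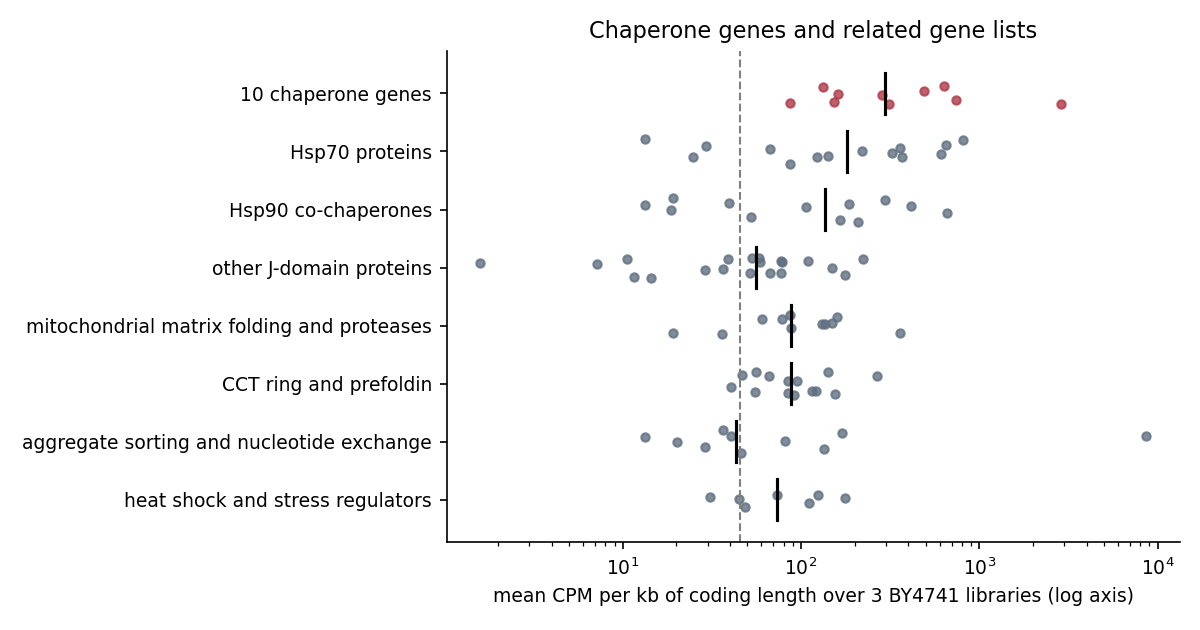
Mean level over the 3 BY4741 libraries of each of the 10 chaperone genes and of the genes in 7 related lists, in CPM per kb on a log axis; each point is a gene, black bars are medians of these points and the dashed line is the median of all matched genes. MDJ1 and SSC1 appear in 2 lists each, and HSP12, at 8653, and HSP26, at 2860.0, are the points farthest to the right.

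The genes whose levels ran closest to a member were sought over the 3 libraries, by the root mean square difference of log2 CPM per kb. For HSC82 these were SVF1 (difference 0.04), RCR2 (0.06) and TMH18 (0.07). For HSP104 they were CMD1, the calmodulin gene (0.08), YER079W (0.10) and SNF6, of the SWI/SNF remodelling complex (0.12). For HSP26 they were YLR154C-G (0.17), YNL208W (0.20) and FPR1, the FK506-binding prolyl isomerase (0.23), with FPR1 at 2569 ± 206 CPM per kb (SD, n = 3). With 3 libraries this likeness rests mainly on level.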

How the data were processed

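RNA of 3 BY4741 and 3 Biocodex cell pellets was extracted with a RiboPure-Yeast kit and made into libraries with a NuGEN mRNA-Seq kit, per the labels. The authors deposited raw read counts per feature, without normalization. FastQC, TopHat, HTSeq and DESeq2 were used, per the submitters' processing notes; their versions, the genome build and the use of strand were not given in the sources used here, so sense and antisense reads cannot be told apart. No gene of the R64 annotation overlapped a member's coding sequence, but counted features absent from that annotation were not checked for overlap. Groups and replicate numbers came from sample titles. The members and gene lists were chosen with earlier results of these data known. Named genes are the 10 members, HSF1, MSN2, MSN4, the highest and lowest of each list, genes with 0 reads throughout (none in these lists) and the 3 nearest genes of HSC82, HSP104 and HSP26; CAJ1, SSA1, STI1, CDC37, AHA1, SSB1, SSC1 and MDJ1, where named, were added after their values were seen, as partners of members.

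Counts were divided by library totals to CPM and by coding length in R64 (5898 of 6572 features matched). Deviations used log2 of CPM plus 0.5 and genes of at least 10 mean CPM. Promoter windows ended at the coding start, can reach into a neighbouring gene, and stretches join matches at most 100 bases apart with 5 bases on each side; they were chosen by that rule. Coding sequences were aligned with Biopython 1.88. The planned descriptions were computed for BY4741 alone, and ratios were tested by exact sign-flip permutation. Computations were tested on simulated data. Alternatives used edgeR 4.0.16 TMM factors, DESeq2 1.42.0 size factors, filters, length scalings, thinning to 4581414 reads and leaving out each library. R 4.3.3, Python 3.11.15, numpy 2.4.6, pandas 2.3.3, SciPy 1.17.1 and matplotlib 3.10.9 were used.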

Additional observations from a re-analysis of the deposited data

How the results depend on the processing

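Of 269 values recomputed for 32 results, 240 moved by less than the spread between libraries or, for counts of members, did not change. Part of the 240 could not move, so their number does not measure robustness. Ratios within libraries are the same under any library factor, and gene filters leave the median of the members as it was. A library factor also cannot change which members lie above the median of all genes. Of the ratios with 1 direction in 3 of 3 libraries, 1 reversed: in CPM without coding length the log2 ratio of HSP60 over HSP10 was 1.29, by construction, since division by a shorter length raises HSP10. SIS1 and HSP104 were not among these ratios, and their order also reversed with that scaling, to 515 against 845 CPM. The same scaling put the median of the members at 412 CPM and the log2 ratios at 1.12 for HSP26 over HSP42, 1.12 for HSP26 over HSP104, 0.88 for HSC82 over YDJ1 and -1.22 for HSP78 over HSP60. TMM and DESeq2 factors moved the median of the members to 297.6 and 297.8 CPM per kb from 297.3. The count of members above the median of all genes stayed at 10, and that of members over 2-fold between libraries at 0, under each alternative run for them. Leaving out 1 library put the median of the members between 271 and 316 CPM per kb. The median deviation of the 10 members, log2 -0.07, 0.06 and 0.04 in replicates 1, 2 and 3, has no stable sign: with TMM and DESeq2 factors it was -0.02 in replicate 3, and with 1 library left out it ran from -0.07 to 0.07 and changed sign in each replicate. HSC82 over YDJ1 also changed sign, to -0.02, without replicate 2. No paired analysis was possible because the genes were measured in 1 strain only. Lengths are of coding sequence, so untranslated parts weigh most on short genes such as HSP10. Depth did not limit the members, whose lowest count was 772 reads, but it limits genes such as JJJ3.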

Other observations

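Among the 8 subunit genes of the CCT ring, which holds its subunits in equal number, CCT6 stood at 264, 268 and 268 CPM per kb in replicates 1, 2 and 3. The next highest, CCT2, stood at 136, 131 and 158. CCT6 lay above the other subunits in each library. TAH1, a small co-chaperone of Hsp90 that works with PIH1 in the R2TP complex, stood at 414, 284 and 538 CPM per kb, against 66.1, 63.0 and 29.1 for PIH1. In CPM without length the gap was smaller, at 138 ± 42.6 for TAH1 against 54.6 ± 21.2 for PIH1 (SD, n = 3 each). These genes were singled out after their values were seen, and no test was made.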
